A study of Homo sapiens with 12 samples.

Results

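The genes described here are 10 human genes of the protein synthesis machinery: the elongation factor genes EEF1A1, EEF1B2, EEF1D, EEF1G and EEF2, the initiation factor subunit genes EIF3E, EIF3H and EIF3L, the poly(A)-binding protein gene PABPC1, and TPT1, which encodes the translationally controlled tumour protein. They were chosen by name as translation factors whose mRNAs are classed as TOP mRNAs, and every locus of the expression table that names one of the 10 symbols was taken. Of 57908 loci in the table, 11 name one of them. The additional locus is a second one named EEF1A1, with at most 0.916 FPKM (fragments per kilobase of transcript and per 1e6 mapped fragments) in any library. It did not reach the minimum of 1 FPKM in at least 2 samples that was asked of a tested locus, so the 10 genes are represented by 1 locus each among 15833 tested loci. With doxorubicin 9 of the 10 fell in each of the 3 plasmid backgrounds, by 20.9% to 58.0%, and EEF1D did not pass the test in any of them.

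The cells are HCT116, an established human colorectal cancer line. GFP cells (genotype WT in the labels, transfected with the control vector), NSE4 cells (transfected with NSE4A-flag) and SMC5 cells (transfected with SMC5-flag) were each divided 24 h after transfection. PBS went to one portion and doxorubicin at 1000 nM to the other, for 24 h, with 2 libraries in each of the 6 groups. NSE4A and SMC5 are subunits of the SMC5/6 complex, which acts in chromosome maintenance and DNA repair, and doxorubicin is an anthracycline that poisons topoisomerase II and causes DNA breaks. All groups were transfected, and no untransfected cells were analysed here. Whether the pair of libraries in a group stems from separate transfections is not stated in the sources used here, so each p-value reflects the spread among these samples alone, part or all of which may be technical.

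The plasmid labels could be checked in the table. NSMCE4A, the gene of NSE4A, was at 71.8 ± 4.31 FPKM (SD, n = 2) in GFP cells and 4128 ± 82.1 in NSE4 cells without the drug, and SMC5 was at 21.1 ± 17.5 in GFP cells and 927 ± 73.6 in SMC5 cells. Of 9 markers of a colon epithelial line, 7 had a median of at least 1 FPKM in the untreated libraries (EPCAM 137). Of the 7, KRT19 and LGALS4 lie in loci that also name other coding genes, which leaves 5 on loci of their own, while VIL1 and CEACAM5 stayed under 1. Of 16 markers of fibroblasts, leukocytes and endothelial cells, 13 stayed under 1 FPKM in every untreated library. The exceptions were COL1A1 at a median of 20.2 FPKM and 2 loci shared with another coding gene, PDGFRA with FIP1L1 and CD14 with NDUFA2. The 2 columns of doxorubicin-treated SMC5 cells were nearly the same (r = 0.9994 on the log2 scale, 1091 identical values above 0, against r of 0.9868 to 0.9880 and 0 identical values in the other 5 pairs). They were averaged and counted as 1 sample, which has no SD and leaves 11 samples. Depth, estimated from the FPKM step of a single fragment, was 13.4 to 19.1 M fragments (M, 1e6) per library. Mitochondrial transcripts took 28.9% to 46.2% of the summed FPKM in untreated and 34.9% to 45.6% in treated libraries, and more in replicate 1 than in replicate 2 of every group.

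TOP mRNAs begin with a 5′ terminal oligopyrimidine tract, a C at the cap followed by a run of pyrimidines. Nearly all ribosomal protein mRNAs and many mRNAs of elongation factors have one, and it lets mTORC1 signalling, through LARP1 and the cap-binding complex, hold back or release their translation as a set. In elongation, eEF1A (EEF1A1) brings aminoacyl-tRNA to the ribosome, the eEF1B complex (EEF1B2, EEF1D and the scaffold EEF1G) recharges eEF1A with GTP, and eEF2 drives translocation. The eIF3 complex, to which EIF3E, EIF3H and EIF3L belong, holds the small subunit ready for initiation, and PABPC1 binds the poly(A) tail and links it to the cap.

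The start of the transcripts shows the feature that gives the class its name. The following 30 bases are the 15 before and the 15 from the annotated start site in RefSeq (GRCh38.p14), read 5′ to 3′ on the gene's strand. Capitals mark a run from the start site that begins with C and goes on for at least 4 more C or T.
EEF1A1, chr6:73521018-73521047, minus strand: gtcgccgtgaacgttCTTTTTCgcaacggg
EEF2, chr19:3985449-3985478, minus strand: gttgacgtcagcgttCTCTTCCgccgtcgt
TPT1, chr13:45341169-45341198, minus strand: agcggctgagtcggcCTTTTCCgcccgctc
EEF1B2, chr2:206159880-206159909, plus strand: ccggtctcttcgggtCCTTTTTCCTCTCTT
EEF1B2, other annotated start, chr2:206159594-206159623, plus strand: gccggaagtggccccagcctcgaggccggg
EEF1G, chr11:62573877-62573906, minus strand: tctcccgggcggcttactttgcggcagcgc
Of these 6 annotated starts, 4 hold the tract at exactly the start base, and it is 7 bases long in EEF1A1, EEF2 and TPT1 and runs through all 15 bases in EEF1B2. At the EEF1G start and the other EEF1B2 start no such run begins at the start base. Pyrimidine runs at other positions of the window were not searched for. EIF3L, EIF3E, EIF3H, EEF1D and PABPC1 were not searched. On the same rule, applied to the gene's strand only, 4.07% of 35116 annotated starts hold the tract, and 46 of 77 ribosomal protein starts (59.7%) do. A match describes the annotated sequence, and the start sites used by these cells were not measured.

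With doxorubicin 9 of the 10 loci fell in GFP cells, 9 in NSE4 cells and 9 in SMC5 cells, and 0 rose, at a limma adjusted p under 0.05 over all 15833 loci. Over all loci, 14.1% fell and 17% rose in GFP cells, 13.9% fell and 16.3% rose in NSE4 cells, and 9.87% fell and 11% rose in SMC5 cells. The median log2 change of the 10 was −0.67 in GFP, −0.58 in NSE4 and −0.66 in SMC5 cells, against 0.02, 0.03 and 0.02 over all tested loci. All 10 are abundant. The 921 loci with an untreated mean of at least 100 FPKM had medians of −0.27, −0.26 and −0.27. Of those, 42.2% fell in GFP, 42.3% in NSE4 and 35.0% in SMC5 cells. In SMC5 cells 6 of the 10 fell when either untreated library was left out (without replicate 1 or without replicate 2), and 0 of all loci passed, with 4784 at an unadjusted p under 0.05, when the 2 untreated and 1 treated samples were fitted alone. For the 9 genes all 5 treated samples lay below all 6 untreated ones, an ordering that 18.6% of all loci had. FPKM is a share of a library, so a fall in these values cannot be told apart from a rise of other RNA, nor fewer expressing cells from less RNA per cell. The 11 loci together took 1.62% to 1.69% of the summed FPKM outside the mitochondrial loci in untreated libraries and 1.06% to 1.16% in treated ones.

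**Figure D1:**
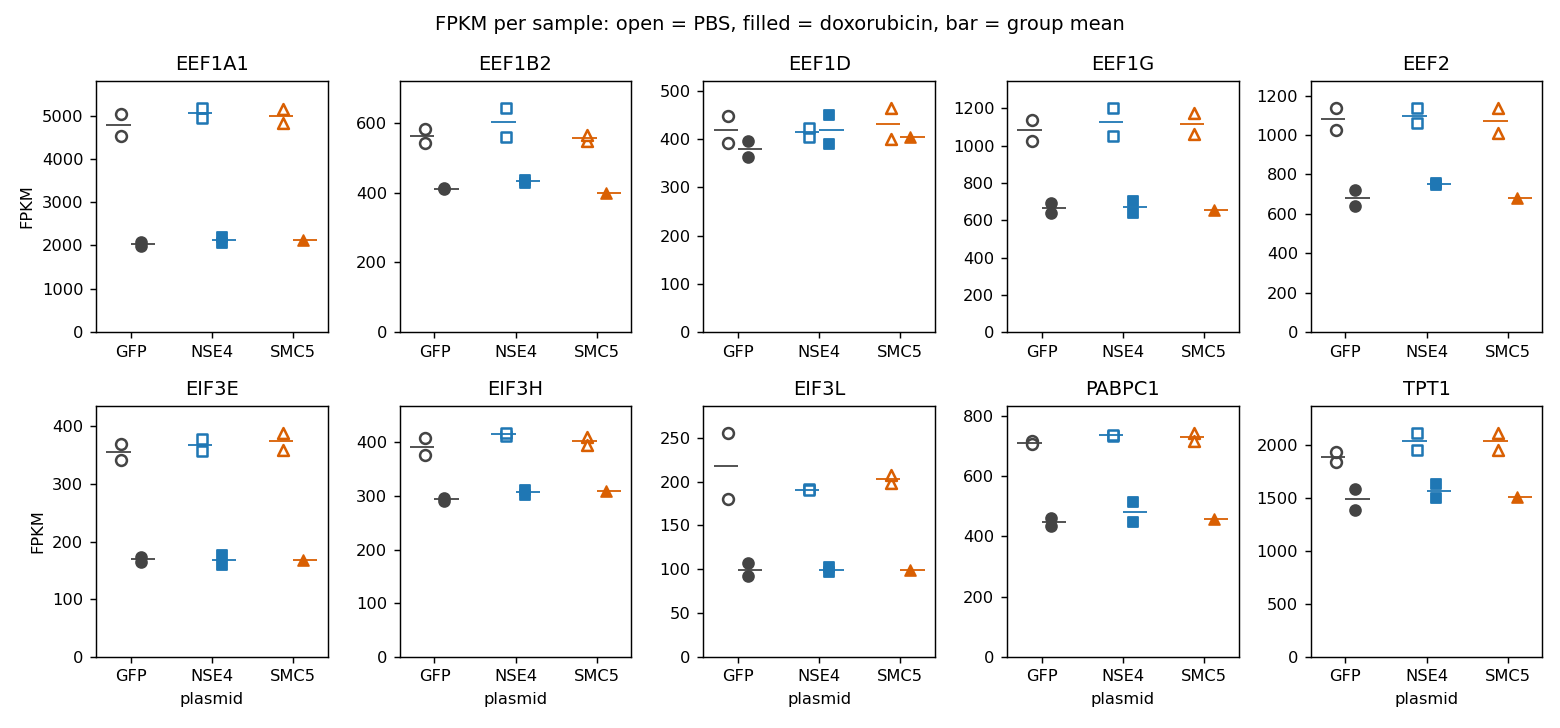
FPKM (vertical axes, from 0) of each of the 10 genes in the 11 samples, by plasmid (horizontal axes). Open symbols are PBS, filled symbols doxorubicin, and bars are group means. The filled triangle is the mean of the 2 columns of treated SMC5 cells, whose spread is not drawn. Filled symbols lie below open ones in every panel but EEF1D, where they overlap.

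EEF1A1, the main aminoacyl-tRNA carrier, was the most abundant of the 10 and had the largest fitted fall in each background. Under quantile normalization EIF3L and EIF3E fell further, as did EIF3L in GFP cells without GFP replicate 1 (−1.36 against −1.31) and EIF3E in SMC5 cells without SMC5 replicate 2 (−1.20 against −1.18). Without the drug it was at 4521 and 5024 FPKM in GFP cells, 4938 and 5175 in NSE4 cells, and 4823 and 5154 in SMC5 cells. With doxorubicin it was at 1989 and 2071 FPKM in GFP cells, 2056 and 2190 in NSE4 cells, and 2126 in SMC5 cells. The groups were far apart: the highest treated value was under the lowest untreated one in each background. The log2 change, on the log2(FPKM + 1) scale, was −1.23 ± 0.08 (SE) in GFP cells (limma adjusted p = 6.15e-05), −1.25 ± 0.08 in NSE4 cells (6.33e-05) and −1.23 ± 0.10 in SMC5 cells (0.000331), a fall of 57.4% to 58.0% in the mean. By level, EEF1A1 ranked 17th of all loci in the untreated samples and 33rd in the treated ones. Its fall was large also among abundant transcripts, though not the largest. Of the 921 loci with an untreated mean of at least 100 FPKM, 52 had a larger fitted fall in GFP cells, 55 in NSE4 cells and 58 in SMC5 cells. In that class 42.2%, 42.3% and 35.0% of loci fell, so a fall was more frequent there than over all loci.

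The genes of the eEF1B complex did not move alike. EEF1G, the scaffold subunit, was at 1082 ± 79.9 FPKM (SD, n = 2) in GFP cells and 666 ± 38.9 with doxorubicin. It fell by 38.4% there, by 40.4% in NSE4 cells and by 41.5% in SMC5 cells, with a log2 change of −0.70 ± 0.11, −0.74 ± 0.11 and −0.77 ± 0.13 (limma adjusted p = 0.00201, 0.00149 and 0.00518). The locus also names TUT1 and AP002990.1, so its FPKM cannot be given to EEF1G alone. EEF1B2, a nucleotide exchange subunit whose locus also holds the small nucleolar RNA SNORA41, fell less: from 562 ± 29.7 FPKM to 411 ± 2.21 in GFP cells, and by 26.9%, 28.1% and 28.4% in the 3 backgrounds. Its log2 change was −0.45 ± 0.09 in GFP cells (limma adjusted p = 0.00611), −0.47 ± 0.09 in NSE4 cells (0.00517) and −0.48 ± 0.11 in SMC5 cells (0.0166). The EEF1B2 call in SMC5 cells was lost without SMC5 replicate 1 (limma adjusted p = 0.0539), without SMC5 replicate 2 (0.0649) and with the compared groups alone (0.121), which also ended the call in NSE4 cells (0.0561).

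EEF1D, the other exchange subunit, was the only one of the 10 that did not pass the test. Its untreated values were 391 and 447 FPKM in GFP cells, 405 and 422 in NSE4 cells, and 399 and 465 in SMC5 cells. The treated values were 362 and 395 FPKM in GFP cells, 390 and 450 in NSE4 cells, and 404 in SMC5 cells. The ranges overlap. The log2 change was −0.15 in GFP cells (95% interval −0.41 to 0.12, limma adjusted p = 0.372), 0.02 in NSE4 cells (−0.25 to 0.28, 0.935) and −0.09 in SMC5 cells (−0.41 to 0.23, 0.692). The sign of these small values depended on the scaling. With libraries rescaled to a common sum outside the mitochondrial loci, EEF1D was at 0.05, 0.23 and 0.10 and passed the test as a rise in NSE4 cells (limma adjusted p = 0.0353), while with an adjustment for GC content it passed as a fall in GFP cells (−0.25, 0.0376).

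EEF2, the translocase, whose locus also names the small nucleolar RNA SNORD37, was between 1010 and 1138 FPKM in the 6 untreated samples (median 1097) and between 641 and 758 in the 5 treated ones (median 719). It fell by 37.1% in GFP, 31.4% in NSE4 and 36.4% in SMC5 cells. The log2 changes were −0.67 ± 0.10, −0.54 ± 0.10 and −0.65 ± 0.12 (limma adjusted p = 0.00167, 0.00451 and 0.00759). Under quantile normalization the call in NSE4 cells was lost (−0.15, limma adjusted p = 0.173).

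**Figure D2:**
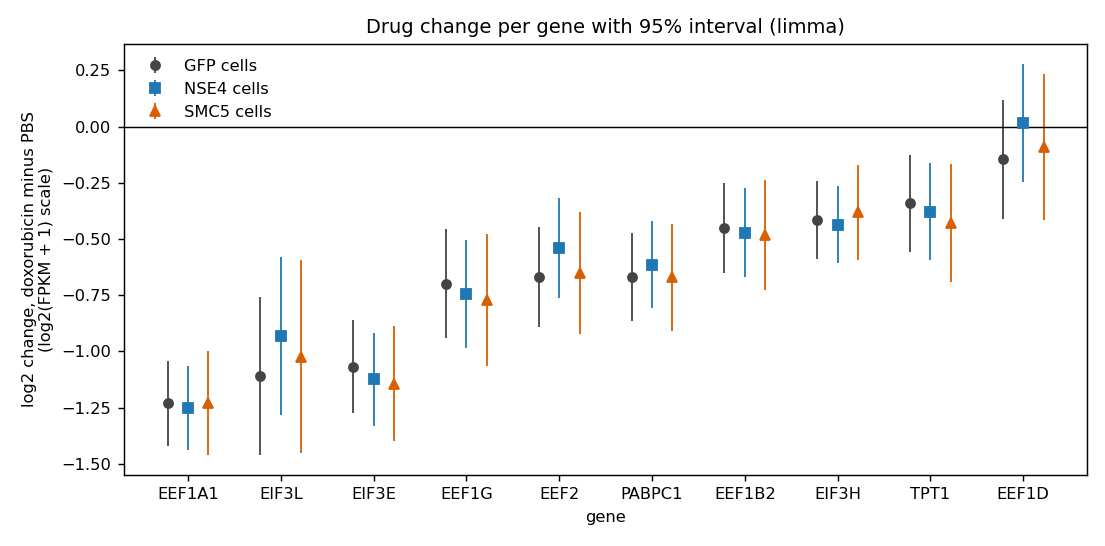
Log2 change with doxorubicin on the log2(FPKM + 1) scale (vertical axis) of each gene (horizontal axis, ordered by the value in GFP cells) in GFP, NSE4 and SMC5 cells; bars are the 95% intervals of the limma fit. In 9 genes the values lie below 0 with their whole intervals in all 3 backgrounds, from EEF1A1 at −1.23 to TPT1 at −0.34 in GFP cells, and the intervals of EEF1D include 0.

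Ratios between genes of one library do not change when the whole library is multiplied by 1 factor, and they were looked at after the values were known. EEF1A1 had 11.1 to 12.3 times the FPKM of EEF1D in the 6 untreated samples and 4.87 to 5.49 times in the 5 treated ones. EEF1G stood at 2.52 to 2.84 times EEF1D and then at 1.57 to 1.76, and EEF1B2 at 1.22 to 1.52 and then at 0.972 to 1.13. Within each of these 3 ratios the treated and untreated ranges did not overlap. EEF1D was taken as the divisor with the changes known, so lower treated ratios follow from that choice. How often other gene pairs show such an ordering was not counted. Quantile normalization and the GC adjustment change such ratios. In GFP cells the log2 change of EEF1A1 minus that of EEF1D was −1.09 as fitted, −0.74 with quantile normalization and −0.93 with the GC adjustment. For EEF1B2 minus EEF1D the values were −0.30, −0.22 and −0.19. The ratio of EEF1A1 to EEF2, the carrier to the translocase, went from 4.40 to 4.78 without the drug to 2.71 to 3.12 with it. EEF1A1 made up 41.1% to 42.5% of the summed FPKM of the 10 tested loci in untreated samples and 29.7% to 31.2% in treated ones.

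**Figure D3:**
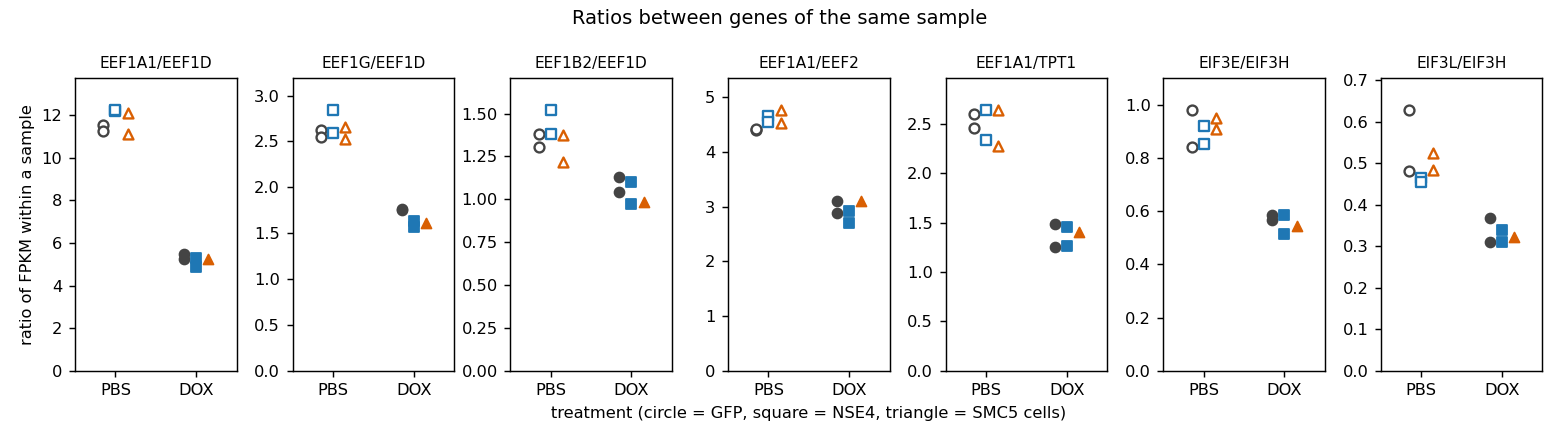
Ratio of the FPKM of 2 genes in the same sample (vertical axes, from 0) with PBS and with doxorubicin (DOX); circles, squares and triangles are GFP, NSE4 and SMC5 cells, open without and filled with the drug. In all 7 panels the filled symbols lie below the open ones, furthest for EEF1A1 to EEF1D (11.1 to 12.3 against 4.87 to 5.49). The pairs were chosen with the changes known, with the gene of the larger fall on top, so this direction follows from the choice. Not drawn are EEF1G to EEF1B2, which was also lower with the drug, and EEF1A1 to EEF1A2, which was higher (26.7 to 30.7 against 19.7 to 24.9).

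The eIF3 genes split in size. The untreated values of EIF3E were 369 and 342 FPKM in GFP cells, 379 and 357 in NSE4 cells, and 389 and 359 in SMC5 cells. After the drug it was at 174 and 165 FPKM in GFP cells, 177 and 160 in NSE4 cells, and 169 in SMC5 cells. That is less than any untreated value by a wide margin, a fall of 52.4%, 54.2% and 54.9%. The log2 change was −1.07 ± 0.09 in GFP cells (limma adjusted p = 0.000157), −1.12 ± 0.09 in NSE4 cells (0.00013) and −1.14 ± 0.11 in SMC5 cells (0.000546). EIF3L, whose locus also names AL022311.1, fell by 54.5%, 47.8% and 51.1% from a lower level. Its untreated values ran from 181 to 256 FPKM, the highest being GFP replicate 2, and its treated values from 92.0 to 107. The log2 changes of EIF3L were −1.11 ± 0.15, −0.93 ± 0.15 and −1.02 ± 0.19 (limma adjusted p = 0.00132, 0.00306 and 0.0077), with the largest standard errors of the 10. In rank, EIF3E went from 241st to 473rd and EIF3L from 412th to 893rd among all loci.

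EIF3H, a subunit that contacts EIF3E and EIF3L within the same complex, fell by 25.1%, 26.1% and 23.3%. It was at 392 ± 21.9 FPKM in GFP cells and 294 ± 4.87 with doxorubicin, and the log2 changes were −0.41 ± 0.08, −0.44 ± 0.08 and −0.38 ± 0.09 (limma adjusted p = 0.00464, 0.00385 and 0.0229). The call in SMC5 cells was lost under 6 of 12 alternatives, with limma adjusted p between 0.0535 and 0.161 in those, and the call in GFP cells was lost with the common sum outside the mitochondrial loci (0.0510). In untreated samples EIF3E was at 0.840 to 0.981 times the FPKM of EIF3H and in treated ones at 0.512 to 0.586. For EIF3L the ratio to EIF3H was 0.454 to 0.629 and then 0.310 to 0.368. Neither pair of ranges overlapped, and here too the gene with the larger fall was put on top.

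PABPC1, which coats the poly(A) tail, was at 719 and 706 FPKM in GFP cells, 735 and 737 in NSE4 cells, and 745 and 719 in SMC5 cells without the drug. With it the values were 434 and 462 FPKM in GFP cells, 449 and 514 in NSE4 cells, and 459 in SMC5 cells, all below the untreated ones. The fall was 37.1%, 34.6% and 37.2%, and the log2 change −0.67 ± 0.08, −0.61 ± 0.08 and −0.67 ± 0.10 (limma adjusted p = 0.000904, 0.00136 and 0.00378). These were close to the values of EEF2 and EEF1G.

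TPT1, a growth-related calcium-binding protein whose locus also names the small nucleolar RNA SNORA31, had the next highest level after EEF1A1 and, in GFP and NSE4 cells, the smallest change among those that passed. Its untreated values were 1841 and 1934 FPKM in GFP cells, 2117 and 1960 in NSE4 cells, and 2121 and 1957 in SMC5 cells. With doxorubicin they were 1592 and 1393 FPKM in GFP cells, 1632 and 1505 in NSE4 cells, and 1515 in SMC5 cells. The groups did not overlap, and the fall was 20.9%, 23.0% and 25.7%. The log2 changes were −0.34 ± 0.09, −0.38 ± 0.09 and −0.43 ± 0.11 (limma adjusted p = 0.0261, 0.0179 and 0.0333). They are the least secure of the set: under quantile normalization they were 0.16, 0.13 and 0.05, and the call was lost under 7 of 14 alternatives in GFP, 6 of 14 in NSE4 and 7 of 12 in SMC5 cells. By level TPT1 moved up, from rank 62 to 55. EEF1A1 had 2.27 to 2.64 times the FPKM of TPT1 without the drug and 1.25 to 1.49 times with it.

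**Figure D4:**
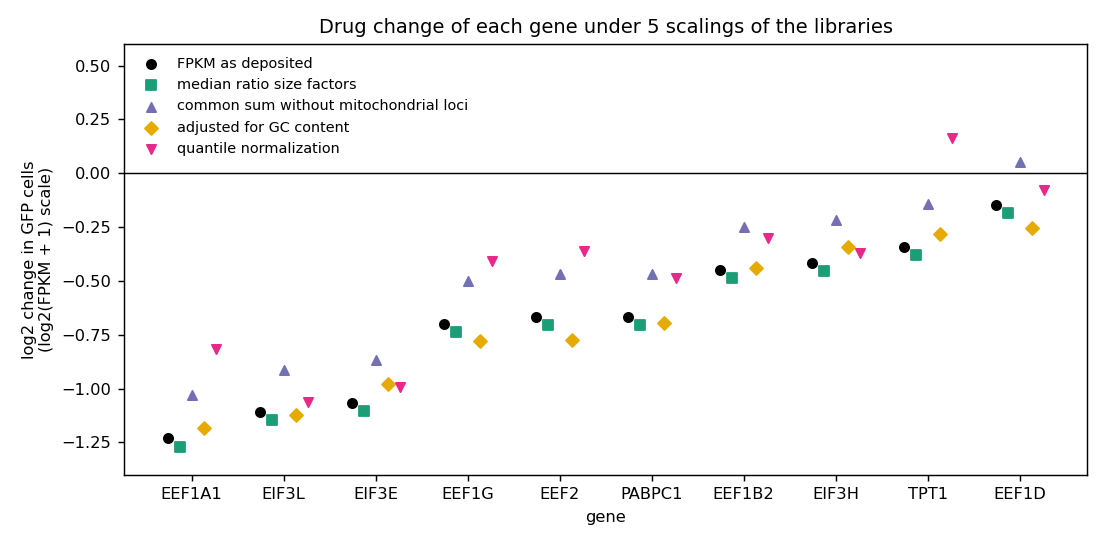
Log2 change with doxorubicin in GFP cells (vertical axis) of each gene (horizontal axis) under 5 ways of scaling the libraries. All 5 points lie below 0 for 8 genes, TPT1 reaches 0.16 under quantile normalization, and EEF1D reaches 0.05 with a common sum outside the mitochondrial loci.

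Rescaling to a common sum outside the mitochondrial loci raised the median drug change of all loci to 0.19, 0.21 and 0.18 in GFP, NSE4 and SMC5 cells. It also turned the whole-table calls in GFP cells from 2691 rises and 2228 falls to 4560 and 1512, those in NSE4 cells from 2575 and 2205 to 4699 and 1432, and those in SMC5 cells from 1747 and 1563 to 3353 and 1104. EEF1A1 stood at −1.03, −1.04 and −1.04 on that scale, and 7, 8 and 7 of the 10 genes fell.

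The plasmids were compared with GFP cells at each treatment, to ask whether NSE4A or SMC5 overexpression moved these genes or altered their response to the drug. These comparisons share the GFP samples. In each of them, and in both interactions of plasmid and drug, 0 of the 10 genes passed limma's adjusted threshold and 0 had an unadjusted p under 0.05. Over all loci, 0.0442% were called for NSE4 against GFP cells without and 0.0568% with doxorubicin, 0% (489 at an unadjusted p under 0.05) for SMC5 against GFP cells without and 0.0316% with doxorubicin, 0.0316% for the NSE4 interaction and 0.0189% for the SMC5 interaction. SMC5 itself was tested and was not called without doxorubicin, at 21.1 ± 17.5 FPKM in GFP and 927 ± 73.6 in SMC5 cells. The absence of calls in that comparison therefore does not show an absence of change. The fitted differences of the 10 genes from GFP cells ran from −0.17 to 0.15 on the log2 scale. Without the drug the furthest was EIF3L in NSE4 cells, at −0.17 (95% interval −0.52 to 0.18). With the drug it was EEF2 in NSE4 cells, at 0.15 (−0.07 to 0.37).

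For EEF1A1, the drug response of NSE4 cells differed from that of GFP cells by −0.02 on the log2 scale (95% interval −0.29 to 0.24) and that of SMC5 cells by 0.00196 (−0.29 to 0.30). The widest interval among the interactions was that of EIF3L in SMC5 cells (0.09, from −0.47 to 0.64). These intervals allow differences of either sign, and larger ones could also miss the threshold adjusted over all loci. The plasmids are therefore not shown to leave the genes alike.

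Other genes of the pathway were counted by lists, leaving out loci that also name another coding gene. That rule was not applied to the 10 genes, among which the EEF1G locus also names TUT1. The counts are to be read beside all loci, of which 14.1% fell and 17% rose in GFP cells. In NSE4 cells 13.9% of all loci fell and 16.3% rose, and in SMC5 cells 9.87% and 11%. With the common sum outside the mitochondrial loci these shares were 9.51% and 28.7% in GFP, 9.01% and 29.6% in NSE4, and 6.94% and 21.1% in SMC5 cells. Of 64 tested cytosolic ribosomal proteins, the largest class of TOP mRNAs, 60 fell in GFP, 60 in NSE4 and 56 in SMC5 cells and 0 rose, with median log2 changes of −0.77, −0.75 and −0.79; under quantile normalization 41, 36 and 34 fell and 2, 4 and 2 rose. RPL3, a core protein of the large subunit, fell from 1879 ± 149 FPKM to 635 ± 10.3 in GFP cells (log2 −1.56 ± 0.09, limma adjusted p = 4.89e-05), further than EEF1A1. RPL10A and RPS14 followed at −1.37 and −1.28. Of 21 other transcripts reported to begin with a TOP tract, 13 fell and 1 rose in GFP cells (median −0.62), 14 and 1 in NSE4 cells and 11 and 1 in SMC5 cells. The initiation factor EIF4B, which assists the cap-bound helicase, fell from 242 ± 5.47 to 86.3 ± 1.77 FPKM in GFP cells (log2 −1.47). The small nucleolar RNA host transcripts ZFAS1 and GAS5 fell there by 0.80 and 0.79 on the log2 scale, while SNHG1, another such host, rose by 0.43.

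Of 13 other elongation factor genes, 5 fell and 2 rose in GFP cells, 4 and 2 in NSE4 cells, and 1 and 1 in SMC5 cells; under quantile normalization 5 and 0 did in GFP cells. EEF1A2, the near relative of EEF1A1 found mainly in muscle and nerve, was the furthest: it was at 212 ± 6.17 FPKM in GFP cells and 73.1 ± 6.26 with doxorubicin (log2 −1.53 ± 0.14, limma adjusted p = 0.000216). The level of EEF1A1 over that of EEF1A2 went from 19.7 to 24.9 without the drug to 26.7 to 30.7 with it. DPH5 and DPH6, enzymes of the diphthamide modification of eEF2, fell by 1.24 and 0.91 on the log2 scale in GFP cells. DPH3 of the same pathway and the mitochondrial factor GFM2 rose there by 0.40 and 0.37.

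Among 10 other eIF3 subunits 3 fell and 1 rose in GFP cells, 2 fell in NSE4 cells and 1 fell in SMC5 cells. EIF3F, itself listed as a TOP mRNA, fell by 0.86 on the log2 scale in GFP cells, from 251 ± 2.20 to 138 ± 17.4 FPKM, and EIF3K and EIF3A by 0.36 and 0.37. EIF3J, a loosely bound subunit, rose there by 0.30. The median of the 10 was −0.06 in GFP cells. With the common sum outside the mitochondrial loci it was 0.13, and 1 fell and 2 rose in GFP cells, 1 and 2 in NSE4 cells, and 1 and 1 in SMC5 cells. Of 22 factors of cap binding, scanning and subunit joining, 4 fell and 3 rose in GFP cells, 4 and 3 in NSE4 cells, and 3 and 2 in SMC5 cells. In GFP cells both shares were close to those over all loci (14.1% and 17%). With the common sum outside the mitochondrial loci the counts in the 3 backgrounds became 2 and 11, 3 and 10, and 3 and 7. After EIF4B, the helicase EIF4A2 (−0.68) and the scanning factor EIF1 (−0.39) had the smallest p among falls, and EIF2B2 and EIF2B1, subunits of the exchange factor of eIF2, rose by 0.91 and 0.92. Of 8 other poly(A)-binding proteins and partners 1 fell in GFP cells, the ribosome recycling factor ABCE1 (−0.40), and with that common sum 0 fell and 1 rose.

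Regulators of TOP mRNA translation moved in both directions. Of 24 tested, 8 fell and 4 rose in GFP cells, 8 and 5 in NSE4 cells, and 6 and 3 in SMC5 cells. In GFP cells the share that rose was close to the 17% over all loci, and the share that fell was above the 14.1% over all loci. With the common sum outside the mitochondrial loci rises outnumbered falls. There 7 fell and 10 rose in GFP cells, 7 and 10 in NSE4 cells, and 4 and 7 in SMC5 cells. All loci shifted too on that scale: 9.51% fell and 28.7% rose in GFP cells. SESN1 and SESN2, the sestrins, known p53 targets that restrain mTORC1, rose from 5.95 ± 0.647 to 32.0 ± 0.984 FPKM and from 8.62 ± 1.56 to 34.0 ± 4.73 in GFP cells (log2 2.25 and 1.87, limma adjusted p = 2.58e-05 and 0.000298). EIF4EBP2, an inhibitor of the cap-binding protein, rose by 0.49. MLST8, a subunit of the mTOR complexes, fell by 1.13 on the log2 scale, and DDIT4 and DDIT4L, which act as mTORC1 inhibitors, fell by 0.81 and 0.75.

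**Figure D5:**
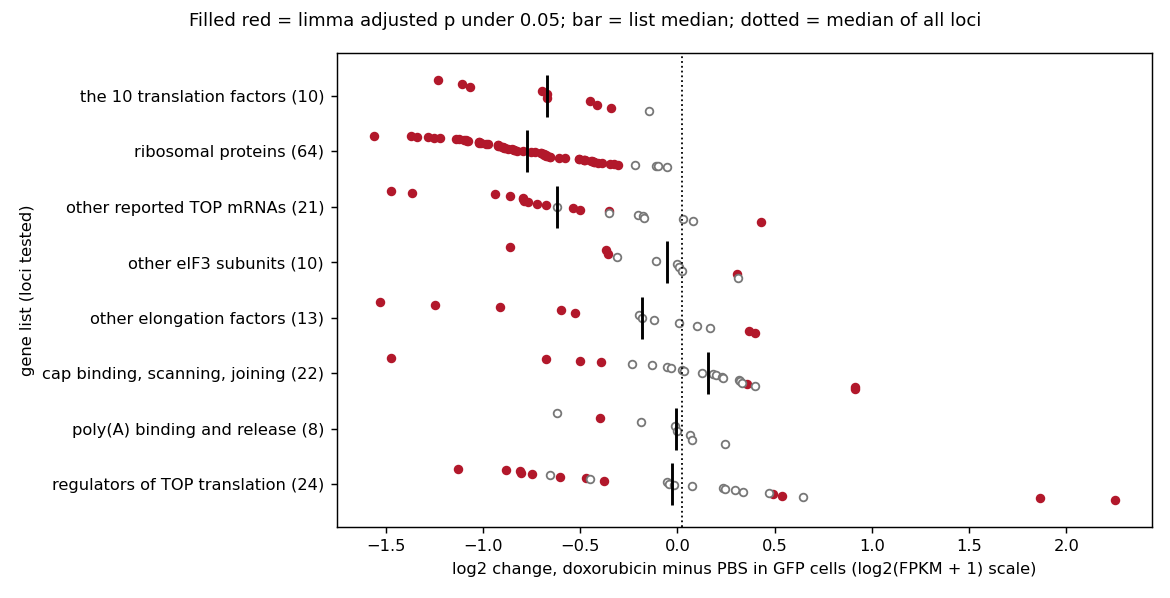
Log2 change with doxorubicin in GFP cells (horizontal axis) of every tested locus in 8 gene lists (vertical axis, number of loci in brackets); filled red points passed limma's adjusted threshold of 0.05, black bars are list medians and the dotted line is the median of all loci (0.02). The medians of the 10 translation factors (−0.67), ribosomal proteins (−0.77) and other reported TOP mRNAs (−0.62) lie left of the other 5 lists, and EIF4B, EIF3F, EIF4A2, EIF2S3 and PABPC4 are each in 2 lists.

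The tract at the annotated start was also set against the drug change of tested loci, leaving out the 10 genes. Only loci that name exactly 1 coding gene, with a RefSeq start in the set used, were taken. A gene counted as having the tract if any of its annotated starts held it, so genes with several starts match more easily. The grouping was made after the list results were known. Among loci that name no ribosomal protein, 24.0% of 575 with the tract fell in GFP cells and 15.6% of 7818 without it, with medians of −0.10 and 0.02. At an untreated mean of at least 100 FPKM the shares were 53.3% of 60 and 35.6% of 402, with medians of −0.39 and −0.18. Of 39 ribosomal protein loci with the tract, 38 fell, with a median of −0.84. The order was the same in the other backgrounds: 23.1% against 15.8% fell in NSE4 cells and 17.4% against 10.7% in SMC5 cells.

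The loci whose levels over the 11 samples were most like the mean of the 10 genes (Pearson r of log2(FPKM + 1), among 5501 loci with 1 symbol and a mean of at least 10 FPKM) were RPL11 (r = 0.999), PTMA, RPS6, RPL31, RPS16, RPS25, RPL14 and APP (0.997). Of these 8, 6 are ribosomal protein genes. PTMA encodes the chromatin-associated protein prothymosin alpha and APP the amyloid precursor protein, and in GFP cells their log2 changes were −1.56 and −0.92. All 11 points share the split by drug. Of the 10 genes themselves, EEF1A1 followed the mean of the other 9 most closely (r = 0.998 over 11 samples), then EEF1G (0.988), with TPT1 at 0.917 and EEF1D at 0.438. Among the 6 untreated samples alone the order was another: EEF1A1 was at 0.934, EEF1G at 0.777 and EEF1D at 0.676, but TPT1 at 0.084, PABPC1 at −0.152 and EIF3E at −0.635.

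Processed copies of these genes are numerous, and reads can be split between a gene and its copy. Only pseudogenes with a locus under their symbol alone were searched for. Of 88 such pseudogenes of the 10 genes, 3 reached 1 FPKM in any library, and the highest was EEF1A1P5 at 6.40. TPT1P13, among the 3, was read at a locus that also names AL359851.1. The level of EEF1A1P5 is small beside the 1989 to 5175 FPKM of EEF1A1. How reads that match both a gene and a copy were shared out is not known.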

How the data were processed

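Messenger RNA libraries were made from total RNA, per the labels' protocols. The authors deposited 1 table of FPKM per locus for 12 libraries, made with TopHat and Cufflinks, per the submitters' processing notes. Their versions, the genome build, the handling of strand and of reads with several matches are not given in the sources used here, so overlapping or antisense genes of a locus cannot be told apart. All 12 columns were used, and the 2 near-identical columns of treated SMC5 cells were averaged.

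From there, log2(FPKM + 1) of the 15833 loci with at least 1 FPKM in at least 2 samples was fitted with limma 3.58.1 (R 4.3.3), with an intensity trend, 6 groups in 1 fit of 11 samples and 5 residual degrees of freedom. Fold changes on this scale understate those of low genes. In each of 9 comparisons p-values were adjusted over all loci (Benjamini-Hochberg), with a threshold of 0.05, and "rose" and "fell" refer to it. The fit was also run on simulated data, with independent noise at the fitted spread and changes set only in treated GFP cells. That simulation does not test library scaling, replicate effects or the single sample of treated SMC5 cells. Gene symbols were matched to RefSeq start sequences (GRCh38.p14) and GENCODE; GC content came from the longest transcript. Alternatives were 3 scalings, 2 filters, a pseudocount of 0.1, the replicate number as a block, the compared groups alone, 12 separate columns, a GC adjustment and leaving out each library in turn, except those of treated SMC5 cells, whose group has no other sample.

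The genes, lists and tests were chosen with earlier results of these data known. All 10 genes are named in every comparison. From each list, up to 3 called loci of smallest p per direction could be named for doxorubicin in GFP cells and up to 2 in other comparisons. The 8 loci of likest pattern are named too.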

Additional observations from a re-analysis of the deposited data

How the results depend on the processing

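The number of the 10 genes called with doxorubicin was 7 to 10 in GFP cells and 7 to 9 in NSE4 cells over 14 alternatives each, and 6 to 9 in SMC5 cells over 11 of 12. Leaving out 1 library gave 8 to 9 in GFP and in NSE4 cells and 6 in SMC5 cells, where the sample left alone in a group is assumed to vary like the other groups. The exception in SMC5 cells was the fit of the compared groups alone (2 samples against 1), which gave 0. Under the common sum outside the mitochondrial loci the 9 calls in NSE4 cells were 8 falls and 1 rise. EEF1A1, EEF1G, PABPC1, EIF3E and EIF3L kept their calls in GFP and NSE4 cells under all 14 alternatives, and in SMC5 cells under all but the compared groups alone. EEF1D changed sign in GFP cells with the common sum (0.053), in NSE4 cells with median ratio size factors (−0.037) and the GC adjustment (−0.092), and in SMC5 cells with quantile normalization (0.00463) and the common sum (0.10). Without 1 library EEF1D ran from −0.09 (without NSE4 DOX replicate 2) to 0.12 in NSE4 cells, with −0.01 without NSE4 replicate 1, and from −0.20 to 0.018 (without SMC5 replicate 2) in SMC5 cells. TPT1 changed sign with quantile normalization, to 0.16, 0.13 and 0.048 in GFP, NSE4 and SMC5 cells; the cause was not tested. For the plasmids and interactions 0 of the 10 were called under any alternative.

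Same-numbered libraries were not shown to be paired: the correlation of replicate 1 minus replicate 2 between groups was −0.086 to 0.135, where more than 0.1 in every pair was asked. Even so, EEF1A1, EEF1B2, EEF1D and EEF1G were higher in replicate 2 of all 6 groups, and EIF3E and the mitochondrial share were higher in replicate 1 of all 6. These 6 include the pair of treated SMC5 columns, which is counted as 1 sample elsewhere. How many of all loci keep such an order was not counted. With the replicate block 9, 9 and 9 genes were called with doxorubicin and 0 in the other comparisons, as without it, while calls over all loci went from 4919, 4780 and 3310 to 5913, 5809 and 4380 in GFP, NSE4 and SMC5 cells. All-locus drug calls differed by over 1.5 times with the compared groups alone (3168, 2437 and 0), with 12 separate columns in SMC5 cells (6077) and without single libraries: 2936 in GFP cells without GFP replicate 2, 2920 in NSE4 cells without NSE4 DOX replicate 2 and 1766 in SMC5 cells without SMC5 replicate 1 at the lowest. With no filter on low values, all-locus calls against GFP cells with doxorubicin went from 9 to 100 for NSE4 and from 5 to 539 for SMC5 cells, and those of the interactions from 5 to 71 and from 3 to 431. With 12 separate columns, SMC5 cells had 129 calls with doxorubicin and 83 in the interaction. Without doxorubicin, calls ran from 1 to 12 for NSE4 and from 0 to 11 for SMC5 cells over the alternatives, the 11 without SMC5 replicate 2. Depth limits the low loci, not these 10, which stood at 92.0 FPKM or more.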
